A study of Mus musculus with 6 samples.

Results

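The forkhead transcription factor genes are the autosomal protein-coding genes of the mouse whose symbol is Fox followed by a letter from a to s and a number. In RefSeq's gene table of GRCm38.p6 (mm10), 41 of 21887 protein-coding genes met this rule. Their open chromatin was read from ATAC-seq, a method that marks accessible DNA by insertion of the transposase Tn5, in insulin-producing β-cells of the pancreatic islets. The control group held 3 libraries with the genotype label Control, and the knockout group held 3 libraries with the genotype label Chd4KO, which the design text calls Chd4Db mice. Chd4 is the helicase subunit of the NuRD chromatin remodeling complex. Mice of both groups had received tamoxifen, and in both the cells were sorted from dispersed islets by the red fluorescent protein Tomato. The promoter that drives the recombinase, the alleles of the controls, the age and the strain of the mice are not stated in the sources used here. Nothing in the labels tells whether each library is a different mouse, so p-values measure only the spread between these libraries, which may be technical.

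Forkhead proteins share a winged-helix DNA-binding domain. Foxa1 and Foxa2 are pioneer factors that bind closed chromatin in endoderm and later act in β-cells on Pdx1 and on insulin secretion. Foxo1 is held out of the nucleus when insulin signals through Akt, and it enters the nucleus under stress, where it takes part in preserving β-cell identity. Foxa3 acts in liver and gut endoderm. A further set of 11 members is expressed in many tissues (Foxj2, Foxj3, Foxk1, Foxk2, Foxm1, Foxn2, Foxn3, Foxo3, Foxp1, Foxp2 and Foxp4). The other 26 members are known mainly from tissues other than the mature β-cell, such as mesenchyme, neural crest, brain, kidney stroma or ciliated epithelium, and are called tissue-restricted here.

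The sequences on which the start-site results turn are the 250 bases before the annotated start of 6 members, from the RefSeq promoter table of GRCm38.p6. They are written from 5′ to 3′ on the strand of the gene, with every CpG dinucleotide in capitals. Foxa2 (chr2:148046970-148047219, minus strand, the outermost of its 3 annotated starts) and Foxo1 (chr3:52268087-52268336, plus strand) are shown as β-cell regulators with a peak over the start in all 6 libraries. Foxf2 (chr13:31625566-31625815, plus) is shown because the window from 250 bases before to 50 after its start had bases under a peak in the knockout libraries only. Foxc1 (chr13:31806396-31806645, plus) and Foxd1 (chr13:98353995-98354244, plus) kept a peak at the start, while peaks further into the gene narrowed or split. Foxd4 (chr19:24901017-24901266, minus) had no peak at the start in any library and lost its peaks inside the gene.
Foxa2: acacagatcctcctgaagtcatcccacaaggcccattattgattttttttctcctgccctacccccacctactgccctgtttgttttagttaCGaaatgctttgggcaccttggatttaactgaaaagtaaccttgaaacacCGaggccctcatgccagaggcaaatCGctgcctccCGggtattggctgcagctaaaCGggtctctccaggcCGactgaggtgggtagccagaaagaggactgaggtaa
Foxo1: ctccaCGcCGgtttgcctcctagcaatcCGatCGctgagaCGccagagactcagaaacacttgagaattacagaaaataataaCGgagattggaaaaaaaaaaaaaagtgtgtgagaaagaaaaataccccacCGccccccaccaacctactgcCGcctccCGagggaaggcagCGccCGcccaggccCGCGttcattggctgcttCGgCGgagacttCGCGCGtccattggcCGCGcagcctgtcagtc
Foxf2: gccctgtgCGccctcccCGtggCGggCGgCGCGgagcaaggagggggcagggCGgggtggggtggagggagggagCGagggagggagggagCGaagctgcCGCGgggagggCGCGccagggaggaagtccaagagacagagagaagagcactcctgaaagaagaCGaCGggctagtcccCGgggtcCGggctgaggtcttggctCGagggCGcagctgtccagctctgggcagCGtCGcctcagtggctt
Foxc1: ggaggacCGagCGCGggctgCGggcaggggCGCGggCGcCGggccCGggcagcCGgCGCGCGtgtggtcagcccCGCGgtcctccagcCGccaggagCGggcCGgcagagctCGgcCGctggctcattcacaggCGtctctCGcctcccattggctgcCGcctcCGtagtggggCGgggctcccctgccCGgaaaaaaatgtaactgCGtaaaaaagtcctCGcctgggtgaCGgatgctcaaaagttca
Foxd1: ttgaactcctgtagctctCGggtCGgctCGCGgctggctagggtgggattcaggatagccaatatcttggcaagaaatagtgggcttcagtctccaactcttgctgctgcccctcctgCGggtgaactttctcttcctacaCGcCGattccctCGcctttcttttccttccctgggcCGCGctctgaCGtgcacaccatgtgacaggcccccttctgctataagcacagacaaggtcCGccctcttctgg
Foxd4: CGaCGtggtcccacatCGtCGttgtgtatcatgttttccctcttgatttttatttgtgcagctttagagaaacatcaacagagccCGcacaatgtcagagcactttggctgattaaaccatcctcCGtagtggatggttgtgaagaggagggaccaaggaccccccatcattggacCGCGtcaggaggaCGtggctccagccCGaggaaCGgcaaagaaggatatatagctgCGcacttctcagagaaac

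The number of CpG dinucleotides in these stretches was 6 for Foxa2, 20 for Foxo1, 21 for Foxf2, 29 for Foxc1, 12 for Foxd1 and 12 for Foxd4. The whole stretch of Foxc1 and of Foxo1 lay under a peak in every library, so both CpG-rich upstream regions were called open in both genotypes. The stretch of Foxf2, with a GC content of 71.6%, had no base under a peak in the control libraries and 78, 0 and 78 bases in knockout libraries 1 to 3, whose peaks continued into the gene.

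The deposited peak lists come without read counts and the sequencing depth is unknown. They held 100109 to 110693 peaks in the control libraries and 119088 to 124125 in the knockout libraries, covering 58000976 to 63810875 and 65817072 to 69138079 bases. The measure for each gene was its covered length, counted as bases under peaks between 10 kb before and 10 kb after the gene span, a stretch termed its territory. For tests, libraries were scaled to their mean total and put on the scale of log2(bp + 300), which understates differences of genes with few covered bases. Scaling set the median difference of all 17711 tested genes, knockout minus control, at -0.09 on this log2 scale, against 0.06 without it, a shift of 0.15, and the differences below are to be read against -0.09. Calls are Benjamini-Hochberg adjusted p-values under 0.05 from limma over all tested genes. The Chd4 territory held 5452, 5298 and 5286 bp in the control libraries and 5050, 6007 and 5091 bp in the knockout libraries, and it checks no label, since the deleted part is not given. The territories of 8 β-cell markers had a median of 14.3% of their length under peaks in the control libraries. The median was 7.14% for 4 α-cell markers, 5.14% for ductal, 2.44% for mesenchymal, 2.25% for leukocyte, 1.82% for endothelial and 1.31% for acinar markers. Cpa1 (acinar) and Tie1 (endothelial) had no covered base in any library, while other markers of their lists had some. In the control libraries peaks covered 4.58% of the territory of Pecam1 (endothelial), 1.91% of Ctrb1 (acinar) and 14.2% of Cd68 (leukocyte).

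Nearly all forkhead territories held a called peak, those of the tissue-restricted members included. Only Foxb1, a regulator of the hypothalamus, and Foxl1, a gene of gut mesenchyme, had no peak in their territory in any of the 6 libraries. Of the 26 tissue-restricted members, 23 had a peak in every control library and 22 in every library. The matching share of all genes was not counted, so these counts cannot be read as particular to forkhead genes. A mean covered length of at least 300 bp was reached by 37 of the 41 members and by 17711 of all 21887 genes. Per length of territory, Foxa3 was the most covered member in the control libraries, at 13.7%, followed by Foxa2 at 13.4%, Foxc1 at 13.1% and Foxo6 at 12.4%. The territory of Foxa3 also holds Irf2bp1 and Sympk, and 18 of the 41 territories hold another protein-coding gene, whose peaks cannot be told apart from those of the member. Foxa1 and Foxo1 ranked 16 and 17 of 41, at 7.23% and 7.20%. The median covered share was 6.66% for the broadly expressed members (range 1.43% to 9.96%) and 5.66% for the tissue-restricted ones (0% to 13.1%), against 4.20% over all genes. In the knockout libraries the tissue-restricted median was 5.58%.

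**Figure D1:**
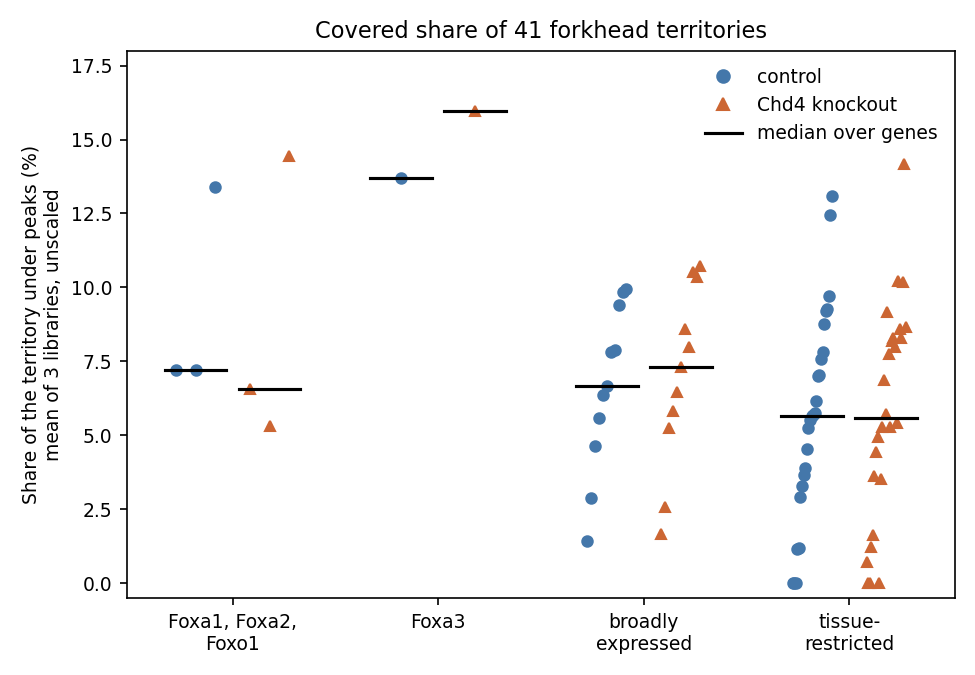
Share of each forkhead territory under peaks (%, vertical axis, mean of 3 libraries without scaling) for the 4 groups of members. Each point is a gene (circles control, triangles Chd4 knockout) and bars are medians. The tissue-restricted members spread from 0% to 13.1% in the control libraries and reach the level of Foxa2, while Foxa1 and Foxo1 lie in the middle of the family.

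In bases rather than shares, the median covered length of Foxa1, Foxa2 and Foxo1 before scaling was 2.49 times that of the tissue-restricted members in the control libraries. As a share of the territory it was 1.28 times. In the plot of covered shares, Foxa1 and Foxo1 lie within the range of the tissue-restricted members and Foxa2 just above it. Because the cells were measured in bulk, a region open in fewer cells and a region less open in each cell cannot be told apart.

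In the comparison of knockout with control, 37 members had enough covered length to be tested (a mean of at least 300 bp). None was called higher and 6 were called lower (Foxd4, Foxc1, Foxq1, Foxd1, Foxo1 and Foxk2), whereas without scaling 4 were called higher and 3 lower, and with libraries centred on their median 1 was higher and 3 lower. Over all genes tested, 7.57% were called higher and 14.6% lower. Among the calls over all genes, 34.2% were higher, against 83.5% without scaling and 60.9% with median centring. At an unadjusted limma p under 0.05, 2 members were higher (Foxd3 and Foxf2) and 9 lower, against 12.1% and 27.8% of all genes. The members called lower under all 3 scalings were Foxd4, Foxc1 and Foxq1. With 1 library left out, 3 or 4 members were called lower, 3 of them in the fits without control library 1, control library 3, knockout library 1 or knockout library 3. After scaling, all 3 knockout libraries lay above all 3 control libraries at 3 of the 37 members and below them at 10, against 13.1% and 32.7% of all genes tested. Before scaling the order was the reverse, above at 12 and below at 5, against 28.5% and 9.68% of all genes. The median difference of the members was -0.06 and that of all genes -0.09. Of the 22 tissue-restricted members tested, 4 were called lower, of the 11 broadly expressed 1, and of the 3 β-cell regulators 1 (Foxo1). The 4 members not tested were Foxb1, Foxl1, Foxi2, which had 260 to 297 bp under a peak in every library, and Foxr1, which had 280 and 286 bp in knockout libraries 1 and 2 and none elsewhere.

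**Figure D2:**
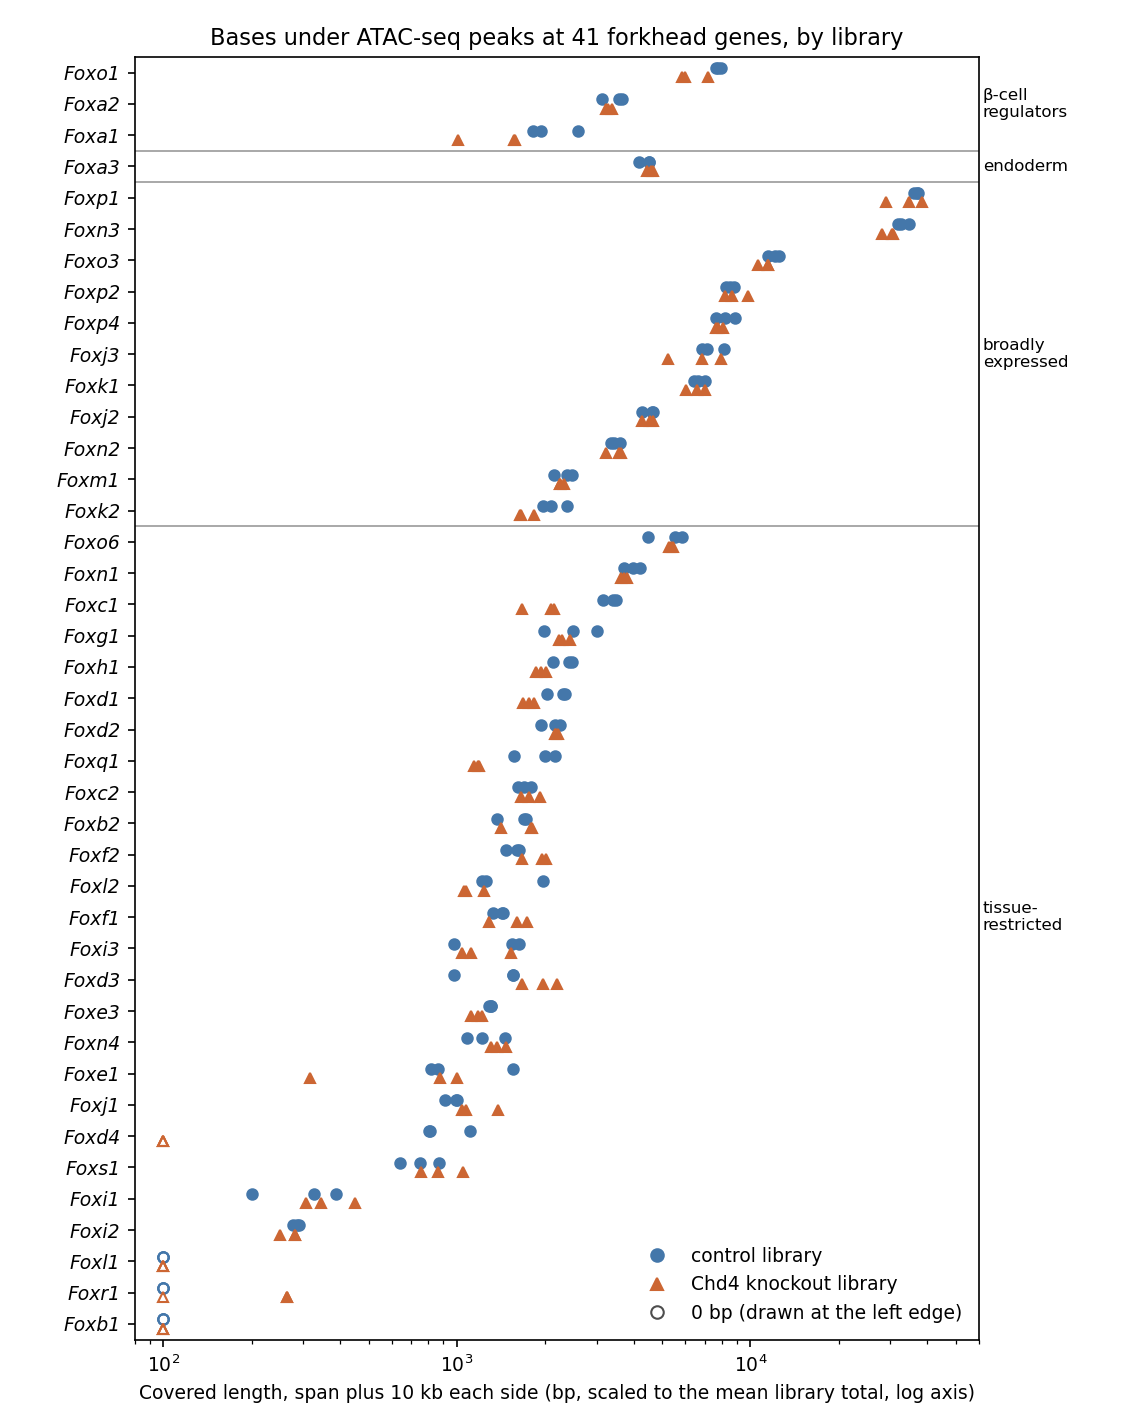
Covered length of the span plus 10 kb each side (bp, scaled to the mean library total, log axis) for the 41 forkhead genes in each of the 6 libraries. Circles are control and triangles knockout libraries, and open symbols at the left edge stand for 0 bp. Foxd4 has covered bases in the 3 control libraries only, and Foxb1 and Foxl1 have none in any library.

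**Figure D3:**
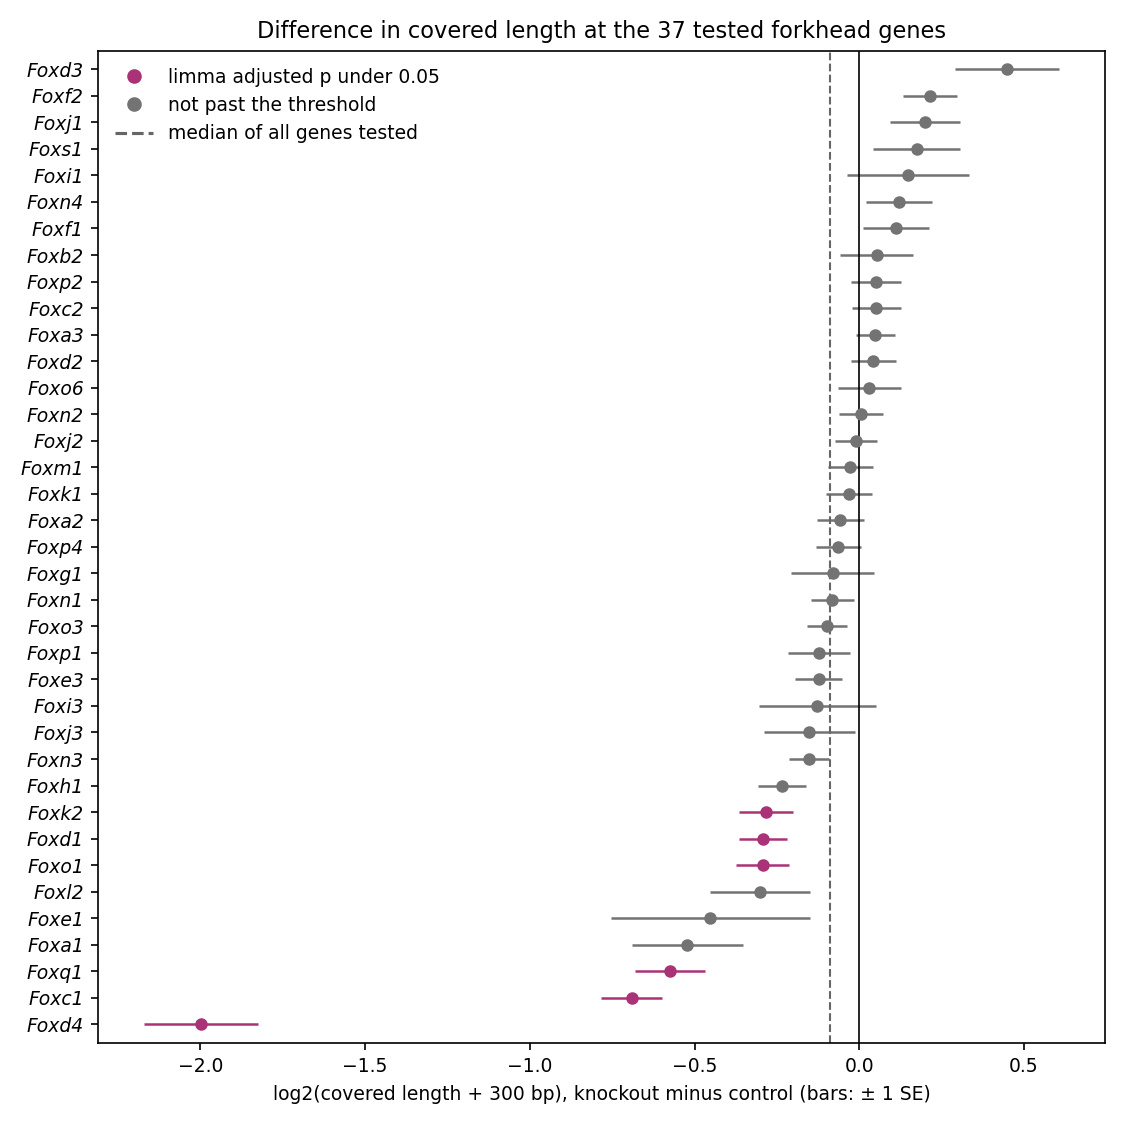
Difference in log2(covered length + 300 bp), knockout minus control, for the 37 tested members; bars are 1 standard error on each side and the dashed line is the median of all genes tested, -0.09. The 6 members past the threshold all lie to the left of the dashed line, with scaling to the library total; Foxd1, Foxo1 and Foxk2 lose the call without it.

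Of the 3 β-cell regulators Foxa2 overlapped between the groups after scaling, Foxa1 was near the threshold and Foxo1 was called lower; differences between the 3 genes were not tested. Foxa2 (chr2:148042877-148046969) had 3316, 3126 and 3246 bp covered in the control libraries and 3562, 3498 and 3387 bp in the knockout libraries. Before scaling each knockout value exceeded each control value, and after scaling the groups overlapped, at 3441 ± 280 bp in control and 3290 ± 71.2 bp in knockout (SD, n = 3). The log2 difference was -0.06 ± 0.07 (SE, limma adjusted p = 0.57), and its sign flipped to 0.10 without scaling and to 0.025 with median centring. Its peak over the outer 2 of its 3 annotated starts, a region of 1474 bp at chr2:148045596-148047069, was called in all 6 libraries at 1375, 1474 and 1417 bp in control and 1417, 1396 and 1406 bp in knockout. These widths overlap before scaling. After scaling, the region was narrower by limma over all regions called in every library (log2 difference -0.17, adjusted p = 0.047), a call that was absent without scaling (-0.01). No region in the Foxa2 territory was gained or lost, where gained means a peak in each of the 3 knockout libraries with none in any control, and lost the reverse.

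Foxa1 (chr12:57540628-57548029), the partner of Foxa2 in endoderm and islets, had 1649, 1932 and 2359 bp in the control libraries and 1651, 1098 and 1633 bp in the knockout libraries. The scaled means were 2109 ± 417 bp and 1384 ± 323 bp (SD, n = 3). After scaling the knockout libraries all lay below the control libraries, while before scaling knockout library 1 was level with control library 1. The difference of -0.52 ± 0.17 did not pass the threshold (limma adjusted p = 0.059). It was called lower with 50 kb on each side (-0.58, limma adjusted p = 0.013) and with a block for the replicate number (limma adjusted p = 0.038). It was not called without scaling (-0.38) or with any library left out. With the 50000 strongest peaks its sign turned, without a call (0.70, limma adjusted p = 0.55). Its main regions had values in opposite directions. A region of 1026 bp, 911 bp beyond the end of the gene away from its start (chr12:57538692-57539717), held 556, 851 and 823 bp in control and 274, 0 and 227 bp in knockout. The region at the annotated start (chr12:57544809-57546214) held 1093, 1081 and 1138 bp in control and 1377, 1098 and 1406 bp in knockout. The gene Ttc6 overlaps this territory.

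Foxo1 (chr3:52268337-52350109) had the most varied territory of the 3, with 25 regions, 9 of them called in every library, 2 gained and 1 lost. Its covered length was 6971, 7737 and 7262 bp in the control libraries and 6315, 7755 and 6033 bp in the knockout libraries. Knockout library 2 was as high as the highest control library before scaling, and the groups separated only after scaling, at 7782 ± 158 bp and 6319 ± 721 bp (SD, n = 3). The log2 difference of -0.29 ± 0.08 was called lower (limma adjusted p = 0.039), but the call was absent without scaling (-0.13) and with median centring (-0.20), and of the 6 fits that leave out 1 library only the one without knockout library 2 kept it. The region over the start, chr3:52267562-52269467, was called everywhere, at 1886, 1878 and 1856 bp in control and 1789, 1820 and 1797 bp in knockout. All 3 knockout widths lay below the control widths, by a small margin (log2 difference -0.22, limma adjusted p = 0.039; -0.05 and not called without scaling). Both gained regions lay inside the gene: chr3:52298670-52298994 with 279, 325 and 235 bp and chr3:52320577-52320851 with 267, 275 and 210 bp in knockout libraries 1 to 3. The lost region, chr3:52355524-52355954, 5415 bp from the gene, held 248, 431 and 244 bp in the control libraries.

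**Figure D4:**
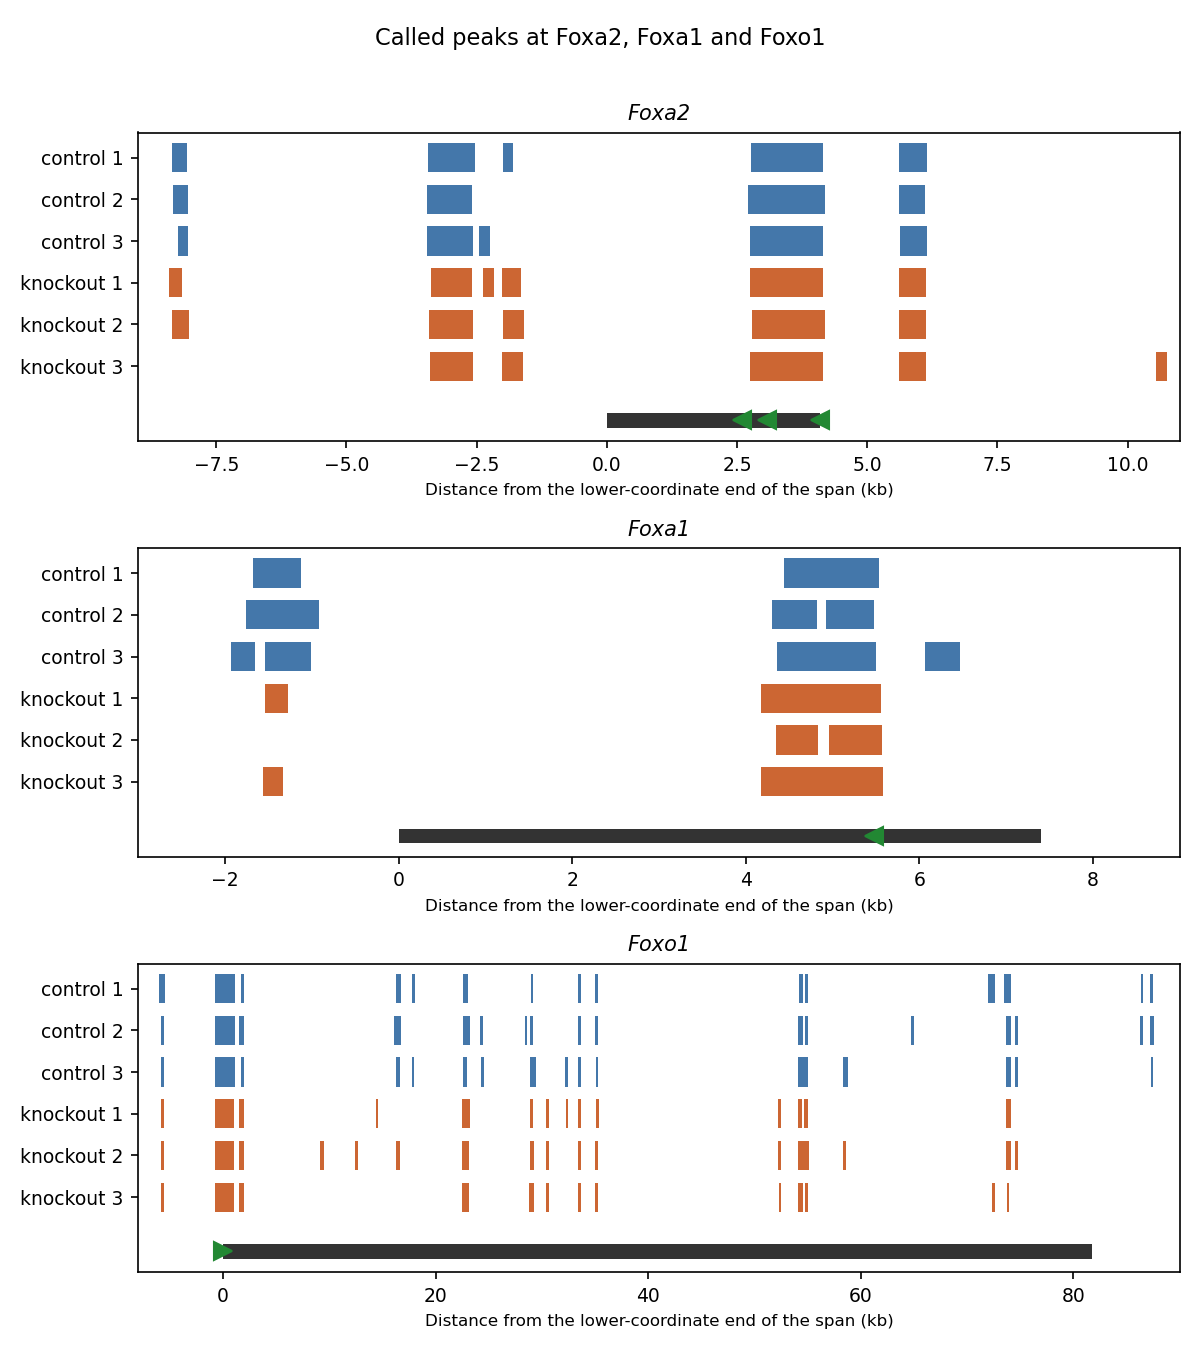
Called peaks at Foxa2, Foxa1 and Foxo1 in each library (rows), by distance from the lower-coordinate end of the gene span (kb). Blue boxes are peaks of control and orange boxes peaks of knockout libraries, the dark bar is the gene span, and green arrowheads are annotated starts pointing in the direction of the gene. Foxa2 and Foxo1 have a peak over an annotated start in all 6 libraries, and the Foxa1 peak reaches its start in all but control library 2, where it ends just short of it; the Foxa1 peaks beyond the left end of the gene are narrower or missing in the knockout libraries.

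The members called lower under all 3 scalings were tissue-restricted. Each had bases inside the gene that were under peaks in control libraries only. Since these members were picked as called lower, such bases somewhere in the territory follow from the choice. How often they lie inside the gene was not counted at other genes. Position relative to the start can be compared at Foxc1 alone, since Foxd4 had no peak at its start and the start of Foxq1 is not given. Foxd4, a gene of early neural tissue (chr19:24898943-24901016), had 732, 1108 and 738 bp in the control libraries and no covered base in any knockout library. Its scaled level in control was 907 ± 173 bp (SD, n = 3), and limma called it lower (adjusted p = 0.0013). No fold is given against a group listed at 0. All of its peaks fell in 1 lost region, chr19:24899384-24900584, between 432 and 1632 bp downstream of the start, and the start window printed above held no peak in any library. These were weak peaks: the authors' −log10 q placed them at percentiles 6.6 to 28.8 of the control lists. Without control library 2 the mean of Foxd4 dropped under the minimum for testing.

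Foxc1, a regulator of mesenchyme, vessels and the eye (chr13:31806646-31810635), had 3087, 3159 and 3174 bp in the control libraries and 2261, 1814 and 2155 bp in the knockout libraries. The groups did not overlap with or without scaling, and the scaled means were 3342 ± 168 bp and 1965 ± 255 bp (SD, n = 3; log2 difference -0.69 ± 0.09, limma adjusted p = 0.0041). The loss was not at the start. A peak from about -470 to 240 bp around the start was called in all 3 knockout libraries, and the control peaks began at the same place. Between 240 bp and 1179 bp downstream no knockout library had a peak. In that stretch control library 1 had a peak up to 886 bp and another from 1111 bp, control library 2 had one from 344 to 1227 bp, and control library 3 had one from 396 to 2092 bp. The merged region, chr13:31806160-31808794, held 2359, 2322 and 2382 bp in control and 1367, 1326 and 1481 bp in knockout (log2 difference -0.88, limma adjusted p = 0.0038), and this call remained without scaling. An upstream region, chr13:31801027-31802005, was narrower with scaling only (-0.47, limma adjusted p = 0.049). The gene Gmds shares the territory.

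Foxq1, a gene of epithelia such as the stomach lining and hair follicle (chr13:31558170-31560976), had bases inside the gene under peaks in control libraries only. It had 1964, 1563 and 1821 bp in the control libraries and 1260, 1238 and 1218 bp in the knockout libraries, with no overlap (1905 ± 309 bp and 1170 ± 25.9 bp scaled, SD, n = 3; log2 difference -0.57 ± 0.11, limma adjusted p = 0.012). The reference gives no start window or strand for it, so distances count from the lower-coordinate end of its span. A peak from -420 bp to between 282 and 461 bp was called in every library, and so was one ending near 2022 bp. Between them, control libraries had peaks beginning at 787, 1181 and 782 bp, whereas knockout peaks began at 1509, 1520 and 1508 bp. The region concerned, chr13:31558952-31560197, held 1236, 727 and 939 bp in control and 514, 503 and 515 bp in knockout (log2 difference -0.93, limma adjusted p = 0.023, and -0.78 with adjusted p = 0.051 without scaling). The region of the first peak, beginning at chr13:31557745, was also narrower with scaling (log2 difference -0.29, limma adjusted p = 0.048). It was not called without scaling (-0.14).

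Foxd1, a gene of kidney stroma (chr13:98354245-98356705), had 2096, 2036 and 2125 bp in the control libraries and 1945, 1816 and 1819 bp in the knockout libraries, again with no overlap. The scaled means were 2222 ± 164 bp and 1758 ± 82.0 bp (SD, n = 3; log2 difference -0.29 ± 0.07, limma adjusted p = 0.028). Each control library had 1 broad peak over the start and gene, from -118 to 1711 bp, -108 to 1699 bp and -103 to 1749 bp. In each knockout library it was called as 2 peaks, with gaps from 332 to 462 bp, 577 to 771 bp and 315 to 452 bp downstream of the start, and it ended sooner, at 1602, 1529 and 1500 bp. That region (chr13:98354094-98355994) held 1830, 1808 and 1853 bp in control and 1611, 1477 and 1516 bp in knockout, and it was narrower with and without scaling (log2 difference -0.40, limma adjusted p = 0.013). The call for the whole territory, in contrast, was absent without scaling (-0.14) and was kept by 1 of 6 fits with a library left out, the one without control library 2.

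**Figure D5:**
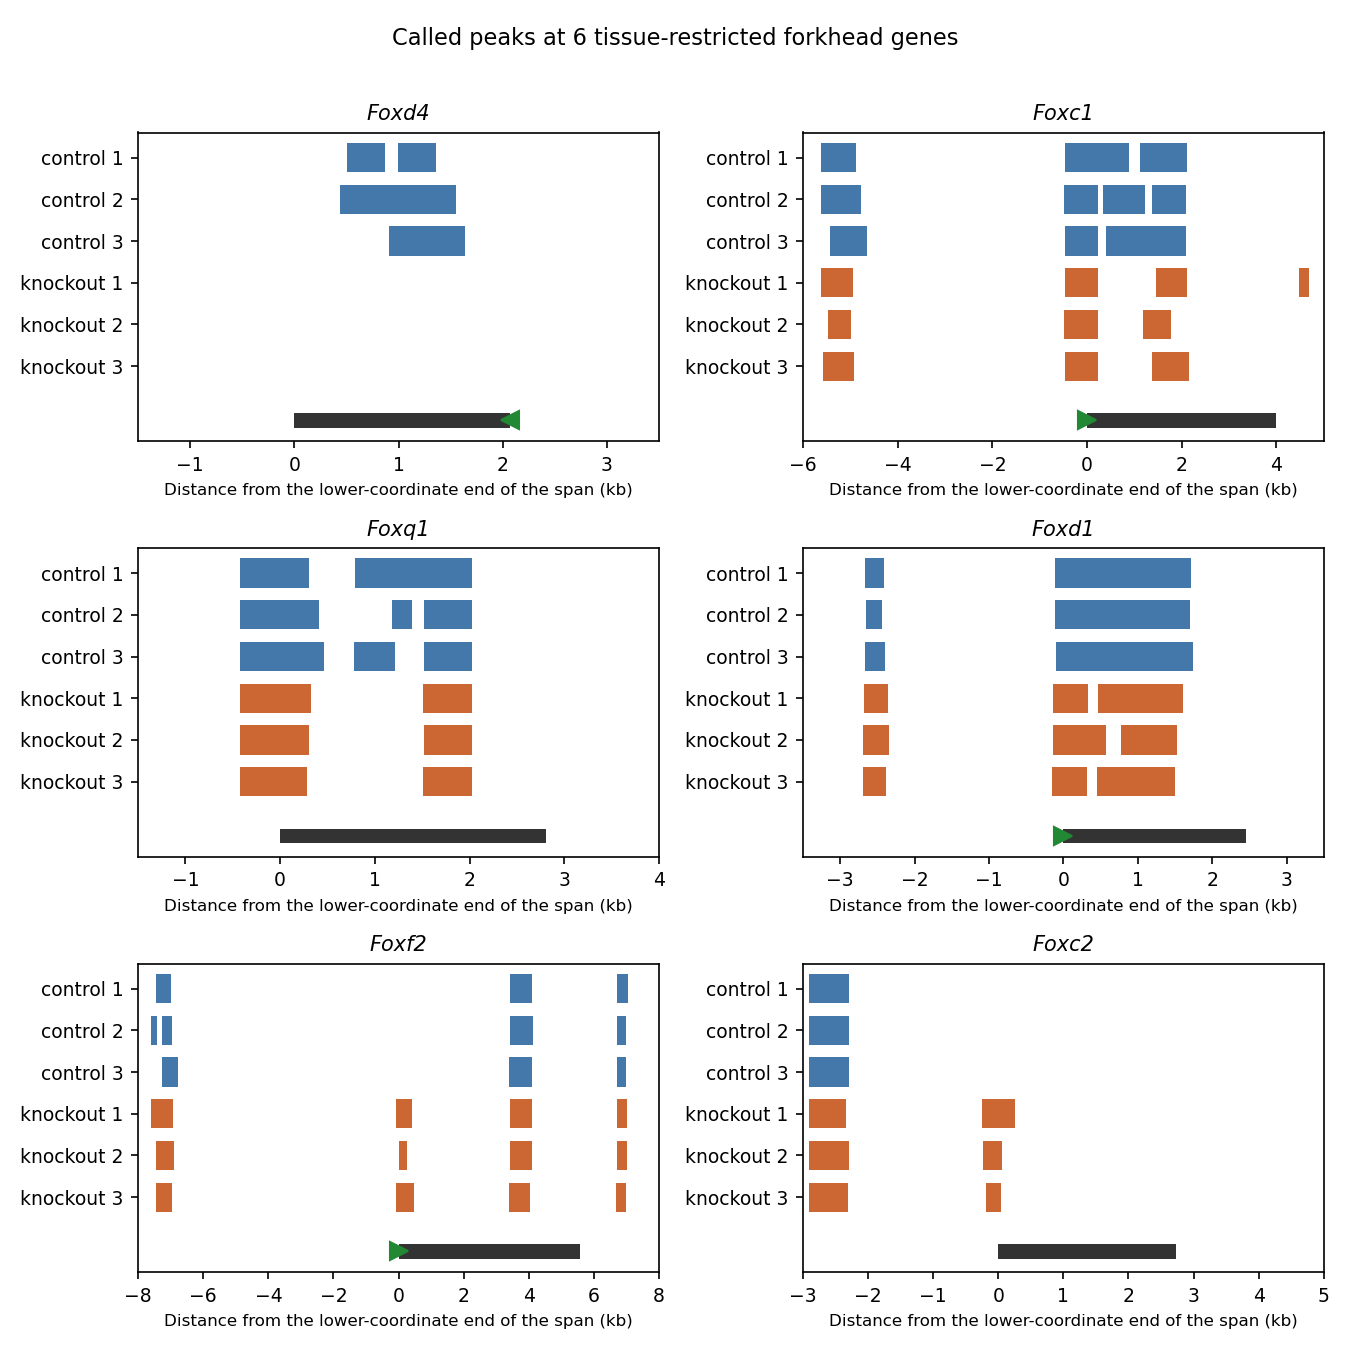
Called peaks at 6 tissue-restricted forkhead genes in each library (rows), by distance from the lower-coordinate end of the gene span (kb). Blue boxes are control and orange boxes knockout peaks, dark bars are gene spans, and green arrowheads are annotated starts where the reference gives one. Foxd4, Foxc1, Foxq1 and Foxd1, all called lower with scaling, have stretches inside the gene that are under a peak in control libraries only. Foxf2 and Foxc2 have a peak at one end of the gene in the knockout libraries only.

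Foxk2, one of the broadly expressed members (chr11:121259987-121309900), had 1905, 2382 and 1795 bp in the control libraries and 1733, 1987 and 1706 bp in the knockout libraries. The groups overlap before scaling, and the call (log2 difference -0.28 ± 0.08, limma adjusted p = 0.044; 2146 ± 211 bp and 1707 ± 108 bp scaled, SD, n = 3) was absent without scaling (-0.14) and in each of the 6 fits with a library left out. Its lost region, chr11:121269514-121270144 inside the gene, held 289, 631 and 202 bp in the control libraries. Nearest to the threshold among the members not called were Foxh1, Foxa1 and Foxd3. Foxh1, the partner of Smad proteins in Nodal signalling, had 2198, 2131 and 2247 bp in control and 2130, 2018 and 1998 bp in knockout (log2 difference -0.24 ± 0.07, limma adjusted p = 0.052). At its end nearest Ppp1r16a, a region called in all libraries (chr15:76671164-76672178) held 1003, 986 and 977 bp in control and 819, 843 and 838 bp in knockout, and it was narrower with and without scaling (-0.38, limma adjusted p = 0.013).

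Higher covered length was seen at a few tissue-restricted members, none past the threshold with scaling. Foxd3, a neural crest gene (chr4:99656299-99658671), had 1413, 975 and 1420 bp in the control libraries and 2074, 1814 and 2267 bp in the knockout libraries, which did not overlap (log2 difference 0.45 ± 0.16, limma adjusted p = 0.076; 0.59 and called without scaling, limma adjusted p = 0.033). Its gained region, chr4:99663368-99664080, lay 4697 bp from the gene and held 289, 303 and 713 bp. Foxf2, a gene of gut mesenchyme and vascular pericytes (chr13:31625816-31631406), had 1484, 1472 and 1467 bp in control and 2130, 1805 and 2008 bp in knockout, again without overlap (0.21 ± 0.08, limma adjusted p = 0.096; 0.36 and called without scaling, 0.28 and called with median centring). Its gained region, chr13:31625738-31626294, spans the start whose upstream bases are printed above (the peak of knockout library 2 begins 9 bp downstream of it), with 497, 255 and 557 bp in knockout libraries 1 to 3. By the authors' −log10 q these peaks stood low in their lists, at percentiles 9.3, 5.0 and 8.7. Foxj1 had 909, 913 and 909 bp in control and 1137, 1129 and 1421 bp in knockout, without overlap (0.20 ± 0.11, limma adjusted p = 0.20). Foxc2, a gene of lymphatic vessels and mesenchyme, gained a region at the lower-coordinate end of its span, chr8:121115928-121116424. This region held 497, 299 and 231 bp at percentiles 60.9, 57.6 and 27.4. Over the whole Foxc2 territory the groups overlapped after scaling (log2 difference 0.05, limma adjusted p = 0.63).

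Markers of other cell types give the values to set beside these. Of 4 mesenchymal marker genes 2 were called higher by limma: Pdgfrb, with 1061, 967 and 846 bp in control and 2146, 1833 and 2291 bp in knockout (log2 difference 0.79, adjusted p = 0.0051), and Prrx1 (0.44, adjusted p = 0.040). The other 2 were not called: Col1a1 differed by 0.07 (limma adjusted p = 0.37) and Acta2 by -0.27 (limma adjusted p = 0.12). The summed scaled covered length of the 4 markers was 6854 to 7316 bp in the control libraries and 8117 to 8958 bp in the knockout libraries. Endothelial markers summed to 6168 to 6908 bp and 6817 to 7884 bp, with Tie1 at 0 in all libraries, and acinar markers to 1502 to 1961 bp and 2582 to 4119 bp. Among the acinar markers Ctrb1 was called higher, with 549, 335 and 517 bp in control and 1351, 1591 and 1462 bp in knockout (log2 difference 1.09, limma adjusted p = 0.0041), while Cpa1 was at 0 in all libraries and Prss2 at 0 in the control libraries. Leukocyte markers summed to 6225 to 7005 bp and 6120 to 7030 bp. β-cell markers summed to 32024 to 36718 bp and 28582 to 28958 bp, with 2 of 8 called lower, and α-cell markers to 7507 to 7653 bp and 5327 to 5696 bp, with 2 of 4 lower. Ductal markers summed to 13374 to 15686 bp and 12842 to 15542 bp. The part of these cell types in the forkhead results was not tested.

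By region, the 41 territories held 382 distinct regions. In all 6 libraries 191 of them were called, or 50.0%, against 50.2% of the regions near any protein-coding gene. Gained regions numbered 28, or 7.33%, against a background of 8.93%, and lost regions 12, or 3.14%, against 2.83%, so both shares were near the background. Gained regions were at 13 members and lost regions at 10. The broadly expressed members, whose spans are long, held 23 of the gained and 8 of the lost regions, the tissue-restricted members 3 and 3, and Foxo1 the rest. Of the gained regions 20 lay within a gene, 3 within 1 kb of a gene end (Foxj2, Foxc2 and Foxf2) and 5 outside, and their widths ran from 235 to 713 bp with a median of 335 bp. Of the lost regions 6 lay within a gene, 2 within 1 kb of a gene end (Foxj2 and Foxd4) and 4 outside. Regions within 1 kb of an end were counted there even where they lay inside the gene, as at Foxd4.

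Foxp1, which with Foxp2 and Foxp4 forms repressor dimers, held 7 gained regions, all within the gene, and none lost. Its total of 33892, 36189 and 33701 bp in control and 40567, 37513 and 30033 bp in knockout nevertheless overlapped between the groups. Foxp2 held 4 gained and 1 lost region; the gained region chr6:14928772-14929353 had 374, 388 and 580 bp at percentiles 74.8, 81.2 and 87.2 of the knockout lists by the authors' −log10 q, the highest of the family's gained regions. Foxn3 held 4 gained and 2 lost regions, Foxk1 2 and 1, and Foxj2 2 and 1. Foxj3, Foxm1 (a factor of mitotic entry), Foxp4 and Foxn2 each held 1 gained and no lost region. Foxo3, the other broadly expressed FOXO factor, held 2 lost regions within the gene, with 247, 210 and 371 bp and with 217, 274 and 252 bp in the control libraries, and no gained one. The remaining lost regions lay at Foxs1 (chr2:152943007-152943426, overlapping Dusp15; 348, 374 and 411 bp) and Foxi3 (chr6:70954082-70954376; 238, 267 and 252 bp).

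Regions called in every library were called narrower with scaling at forkhead genes in a share near that of all such regions. Of the 191, limma called 27 narrower, or 14.1%, and 2 wider, or 1.05%, against 12.6% and 3.2% of all 75312 such regions. Without scaling 8 of the 191 were narrower and 7 wider, beside 2020 and 3420 of the 75312. Within 1 kb of a gene end, inside or outside the gene, 11 of 33 were narrower, elsewhere within genes 13 of 124 and outside 3 of 34. The split by place was not counted over all such regions, so it cannot be read as particular to forkhead genes. At Foxp1, the region chr6:98928005-98928925 had 921, 817 and 784 bp in control and 364, 452 and 346 bp in knockout (log2 difference -1.10, limma adjusted p = 0.0055), the largest narrowing of the 27. At Foxo3, chr10:42189700-42190751 was wider, with 439, 606 and 529 bp in control and 765, 964 and 927 bp in knockout (0.51, limma adjusted p = 0.029). The wider region at Foxn2 (chr17:88467269-88468117) had 584, 514 and 487 bp in control and 806, 799 and 756 bp in knockout. Both of these groups of values are separate before scaling, in the direction of the call. Without control library 2 the number called narrower was 51 and without any other single library it was 11 to 16. Over all 75312 such regions these numbers were 16961 and 2655 to 3990, so the forkhead counts moved with those of all regions.

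Neighbouring members on chromosome 13 differed in whether they were called, though the difference between neighbours was not tested. Foxq1, Foxf2 and Foxc1 lie within 252.5 kb of chromosome 13, where 14 of 20 regions were called in every library, 1 was gained and 1 lost. In this stretch Foxq1 and Foxc1 were lower in the knockout libraries, whereas Foxf2, between them, had a peak in its start window in the knockout libraries only. On chromosome 8, Foxf1, Foxc2 and Foxl1 lie within 46.3 kb, where 3 of 6 regions were called in every library and 1 was gained, at Foxc2. Foxf1 and Foxc2 were not called in either direction, and Foxl1 had no peak and was not tested. Over the union of all 41 territories, 3003644 bp, peaks covered 169478, 178347 and 169831 bp in the control libraries and 185485, 186709 and 167008 bp in the knockout libraries. As a share of each library's covered bases this was 0.292%, 0.279% and 0.292% against 0.275%, 0.270% and 0.254%, so all 3 knockout libraries were lower as a share, while in bases only knockout library 3 lay below every control library.

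The reference gives start windows, from 250 bases before to 50 after the start, for 26 members, 30 windows in all. A peak covered a start window in all 6 libraries at 15 of these members, or 57.7%, against 60.0% of all genes with a window, and in no library at 10, or 38.5%, against 35.2%. Foxf2 was the only member whose start window was covered in knockout libraries alone. The forkhead windows were richer in GC (median 63.5% against 56.3%) and in CpG (median 22.5 against 13 per window, observed over expected 0.70 against 0.57) than those of all genes. The forkhead binding motifs TGTTTAC and TGTTTGC, searched on both strands, occurred in 1 and 2 of the 30 windows, or 3.33% and 6.67%, against 3.01% and 4.58% of all windows. Within 1 kb of either end of the span, 30 of the 41 members had a peak in all 6 libraries and 6 had none in any. This count was not made for all genes.

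The pathways around the β-cell regulators were read from 3 lists. Of 12 genes that carry insulin signalling to FOXO, none was called higher and 2 were called lower by limma: the receptors Insr (log2 difference -0.22, adjusted p = 0.037) and Igf1r (-0.31, adjusted p = 0.012). Over all genes tested 14.6% were called lower, a share close to that of this list. At an unadjusted p under 0.05 none was higher and 4 were lower, against 12.1% and 27.8% of all genes. The median of the list was -0.12, against -0.09 for all genes. Of 14 known FOXO targets none was higher and 4 were lower by limma: the cell cycle inhibitor Cdkn1b (-0.41, adjusted p = 0.0058), the thioredoxin inhibitor Txnip (-0.40, adjusted p = 0.028), the cyclin Ccng2 (-0.29, adjusted p = 0.025) and the muscle ubiquitin ligase Fbxo32 (-0.25, adjusted p = 0.023), with a list median of -0.12. The same backgrounds apply to this list, 14.6% called lower and 27.8% lower at an unadjusted p under 0.05, at which 0 were higher and 5 lower. Cdkn1b had 3603, 4091 and 3459 bp in control and 3070, 3239 and 2857 bp in knockout, which do not overlap even before scaling, and Txnip had 4458, 3692 and 4081 bp against 3232, 3524 and 3451 bp. None of these 6 calls remained without scaling. Of 8 known Foxa1 and Foxa2 targets of islets, Pdx1 and Slc2a2 among them, none was called in either direction by limma (0 higher and 2 lower at an unadjusted p under 0.05, list median -0.14). Pdx1 had 3891, 3757 and 3560 bp in control and 4584, 4637 and 4343 bp in knockout, higher in all knockout libraries before scaling, with a log2 difference of 0.10 after it (adjusted p = 0.29).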

How the data were processed

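ATAC-seq peak lists of 3 control and 3 Chd4 knockout libraries were used, 1 list per library. Per the labels' protocols, 27000 to 80000 sorted cells gave 14000 to 45000 nuclei per reaction, and fragments above 600 bp were removed. The build is mm10 per the submitters' processing notes; aligner, read filters and caller version: not given in the sources used here. Each deposited list gives for each peak a score, a fold enrichment (a ratio to background), a −log10 p and a −log10 q. In the deposited files the score equals 10 times the −log10 q to within 1, the largest q is 0.0494 and every peak is at least 200 bp wide. These values are the authors' own and only ranked or filtered peaks within a list. A narrow peak's width moves with how many reads were sequenced and with the caller's settings, so covered length is not a read count.

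Overlapping peaks of the 6 libraries (1 bp or more) were joined into regions. Covered lengths (pseudocount 300 bp for genes, 100 bp for regions) were fitted with an intensity trend in limma 3.58.1 (R 4.3.3) over all 17711 genes with a mean of at least 300 bp, and over all 75312 regions called in every library. All tests were two-sided. The fits were also run on simulated covered lengths that followed the library totals, so that run cannot check the choice of scaling. Tables were made with Python 3.11.15. Gene spans come from a RefSeq table without strand or exons, so exonic and intronic positions are not distinguished; the start windows come from a RefSeq promoter table.

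The members and the gene lists were chosen with earlier results of these data known. Named genes are Foxa1, Foxa2, Foxo1, every member called, every member with a gained or lost region, the members with no covered base and the 3 nearest the threshold on the other side, and every called gene of the pathway lists; 1 gene of the insulin signalling list is not reported here and is left out of its counts. Foxa3, Foxo6, Foxi2, Foxr1, Foxj1 and Pdx1 are named for their level or as pathway members. The regions of Foxp1, Foxp2, Foxo3 and Foxn2 were singled out after their values were seen. Alternatives covered the scaling, the pseudocount, the minimum, the window, the peaks used, the overlap, the trend, a block for the replicate number and leaving out each library.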

Additional observations from a re-analysis of the deposited data

How the results depend on the processing

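Without scaling, 2586 genes were higher and 510 lower in the knockout libraries, 4 and 3 of them forkhead genes, and of the forkhead regions called in every library 7 were wider and 8 narrower. With each library centred on its median, 1198 genes were lower, and 1 forkhead gene was higher and 3 lower. With only the 50000 strongest peaks of each library, 1543 genes were lower, 6 forkhead genes were higher and 1 (Foxf1) lower, 11 regions were gained and 80 shared. With that choice Foxc1 (-0.13, limma adjusted p = 0.59) and Foxq1 (-0.27, limma adjusted p = 0.25) were no longer called, and Foxd4 was not tested. The sign turned at Foxo1 (0.21), Foxk2 (0.18), Foxa1 (0.70), Foxf2 (-1.22) and Insr (0.41), none of them called. The cause was not tested. With 50 kb on each side, 5 forkhead genes were higher and 9 lower, Foxa1 among the lower. In these larger territories 57 regions were gained, 19 lost and 336 shared. Foxa2 turned sign without scaling (0.10), with median centring (0.025), with 50 kb (0.059) and with 2 kb (0.034), and Foxd3 with 2 kb (-0.13). The ratio of median covered length of the β-cell regulators to the tissue-restricted members was 1.92 with 50 kb and 1.28 as a share of the territory. Foxc1 and Foxq1 were called lower in 10 of 11 alternatives and in 6 of 6 fits with a library left out, Foxd4 in 10 of 11 and 5 of 6, Foxd1 in 7 and 1, Foxk2 in 6 and 0, and Foxo1 in 5 and 1. Leaving out each library in turn gave 676 to 1159 genes higher and 840 to 2229 lower, 0 forkhead genes higher and 3 to 4 lower, 28 to 39 gained, 13 to 17 lost and 191 to 198 shared regions, and 0 to 6 wider and 11 to 51 narrower ones. The deviations of same-numbered libraries correlated at 0.13, 0.093 and -0.03, and not every library correlated best with its own number, so the numbers are not taken to pair the libraries. With the replicate block, 1 forkhead gene (Foxd3) was higher and 6 were lower, Foxa1 in place of Foxo1, and 1 shared region was wider and 14 narrower. The depth of the libraries is unknown, so a region without a peak may be open below the level of the caller.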

Other observations

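Forkhead genes on the X chromosome lie outside the set described above. Foxp3, the regulator of regulatory T cells, had 1267, 1564 and 1243 bp covered in the control libraries and 1264, 1185 and 1296 bp in the knockout libraries (log2 difference -0.23, limma adjusted p = 0.077). The 2 regions in its territory were called in every library. Which other genes lie in the X-linked territories was not listed, so these peaks may belong to a neighbour. Foxo4, a FOXO factor beside Foxo1 and Foxo3, had 1606, 1407 and 1886 bp in control and 1616, 1599 and 1711 bp in knockout (-0.13, limma adjusted p = 0.43). Foxr2 had 1575, 1188 and 1443 bp in control and 1328, 1331 and 1237 bp in knockout (-0.23, limma adjusted p = 0.19). None of the 3 held a gained or a lost region.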
